A study of Mus musculus with 2 samples.

Results

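The genes described are 50 mitosis and spindle genes, a list of named mouse genes whose products build the spindle, attach and separate chromosomes, divide the cell or control these steps. Rows of the deposited array table were taken by gene symbol, and a gene with several probe sets was represented by the one with the highest mean signal. All 50 were found, among 22088 genes with 1 symbol. The measurement is polysome-associated RNA of bone marrow-derived macrophages (BMDM), cells grown from marrow of C57BL/6J mice during 7 days in medium with 20% L929 supernatant. There was 1 array of wild-type BMDM and 1 array of Oasl1-/- BMDM, and both cultures had been exposed during 12 h to poly(I:C), an artificial double-stranded RNA that cells read as viral, at 10 µg/ml. Ribosome-bearing RNA was separated on a sucrose gradient of 10% to 50%, and fractions 9, 10 and 11 of 16 were used. The labels give no untreated culture, no total RNA and no number of mice. With 1 array per genotype no test was possible, and every difference below is the Oasl1-/- minus the wild-type log2 signal of a single pair of arrays.

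In mitosis, cyclin-dependent kinase 1 with its cyclins drives cells into division, Aurora and Polo-like kinases shape the spindle, and kinetochores tie chromosomes to its microtubules. The spindle checkpoint holds back the anaphase-promoting complex until all chromosomes are attached, after which securin and cyclin B are destroyed and the cell divides. These genes are known to be transcribed together late in the cell cycle, through a promoter element called the cell cycle genes homology region and through CCAAT boxes bound by NF-Y. BMDM divide in response to macrophage colony-stimulating factor, which L929 supernatant supplies, and interferon is known to slow this division.

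Promoters are shown for the 4 genes above the signal floor described below that had the most negative differences and carry the core of the homology region, and for Pttg1, which had the highest difference. Windows reach from 250 bases before to 50 bases after the gene start and come from RefSeq, build GRCm38.p6. Capitals mark TTTGAA or TTCGAA, the core searched for the homology region, and CCAAT, each on either strand, so that TTCAAA and ATTGG are the same motifs read from the other strand. The Bub1b window is chr2:118597961-118598260 on the plus strand, that of Cdca8 chr4:124936868-124937167 on the minus strand, that of Cdca3 chr6:124829926-124830225 on the plus strand, that of Anln chr9:22389157-22389456 on the minus strand and that of Pttg1 chr11:43425932-43426231 on the minus strand. In Cdca8 a TTTGAA and an ATTGG overlap.
Bub1b: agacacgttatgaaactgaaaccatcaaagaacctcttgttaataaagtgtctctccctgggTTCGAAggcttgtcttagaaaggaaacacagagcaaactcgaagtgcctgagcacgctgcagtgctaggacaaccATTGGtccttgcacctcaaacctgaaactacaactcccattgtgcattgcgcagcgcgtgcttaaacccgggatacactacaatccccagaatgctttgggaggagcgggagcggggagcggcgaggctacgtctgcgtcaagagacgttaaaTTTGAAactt
Cdca8: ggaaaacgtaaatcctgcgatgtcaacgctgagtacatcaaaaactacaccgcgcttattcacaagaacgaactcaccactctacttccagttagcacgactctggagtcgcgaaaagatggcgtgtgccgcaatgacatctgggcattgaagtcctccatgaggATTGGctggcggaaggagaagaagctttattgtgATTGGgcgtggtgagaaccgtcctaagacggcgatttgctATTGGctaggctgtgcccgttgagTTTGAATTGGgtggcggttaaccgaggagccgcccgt
Cdca3: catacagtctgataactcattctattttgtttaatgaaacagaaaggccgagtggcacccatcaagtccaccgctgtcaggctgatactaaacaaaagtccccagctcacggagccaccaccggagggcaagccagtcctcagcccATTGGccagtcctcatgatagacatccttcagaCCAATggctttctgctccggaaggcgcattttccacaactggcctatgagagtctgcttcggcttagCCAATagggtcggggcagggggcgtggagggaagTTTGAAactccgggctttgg
Anln: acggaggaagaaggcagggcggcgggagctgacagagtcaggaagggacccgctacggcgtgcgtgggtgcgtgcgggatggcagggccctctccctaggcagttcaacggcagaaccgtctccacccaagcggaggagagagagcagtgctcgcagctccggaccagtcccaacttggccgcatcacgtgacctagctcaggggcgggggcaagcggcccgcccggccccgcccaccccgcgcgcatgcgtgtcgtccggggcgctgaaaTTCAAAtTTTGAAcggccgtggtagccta
Pttg1: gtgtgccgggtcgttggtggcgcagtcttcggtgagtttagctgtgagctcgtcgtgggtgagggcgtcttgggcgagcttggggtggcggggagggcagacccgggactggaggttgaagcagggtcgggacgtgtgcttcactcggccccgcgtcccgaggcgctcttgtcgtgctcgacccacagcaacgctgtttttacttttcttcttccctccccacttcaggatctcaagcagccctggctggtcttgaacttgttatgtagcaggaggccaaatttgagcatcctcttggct

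The homology region core was common in these promoters. Of the 50 genes 42 had a window in the RefSeq table, and 32 of them, 76.2%, held TTTGAA or TTCGAA. The core stood in 21.7% of all 27025 genes in the table. Among the 5527 other genes that passed the signal floor and had a window, it stood in 15.8%. CCAAT was present in 31 of the 42, or 73.8%, against 41.1% of all genes. Both motifs together stood in 66.7%, against 8.61% of all genes. GTAAACA, a forkhead core, was present in 2 of the 42, Nuf2 and Ect2, or 4.76%, against 4.05% of all genes. A match of this length is a description of the letters and not a binding site. Matches to the homology region core lay near the gene start, with a median first base at position 3 and quartiles at -77.8 and 17.8, negative positions lying before the start. The core began within 80 bases before to 40 bases after the start in 69.0% of the 42 genes and in 6.79% of all genes, a window chosen after the positions were seen. CCAAT matches lay further upstream, with a median position of -67.5.

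**Figure D1:**
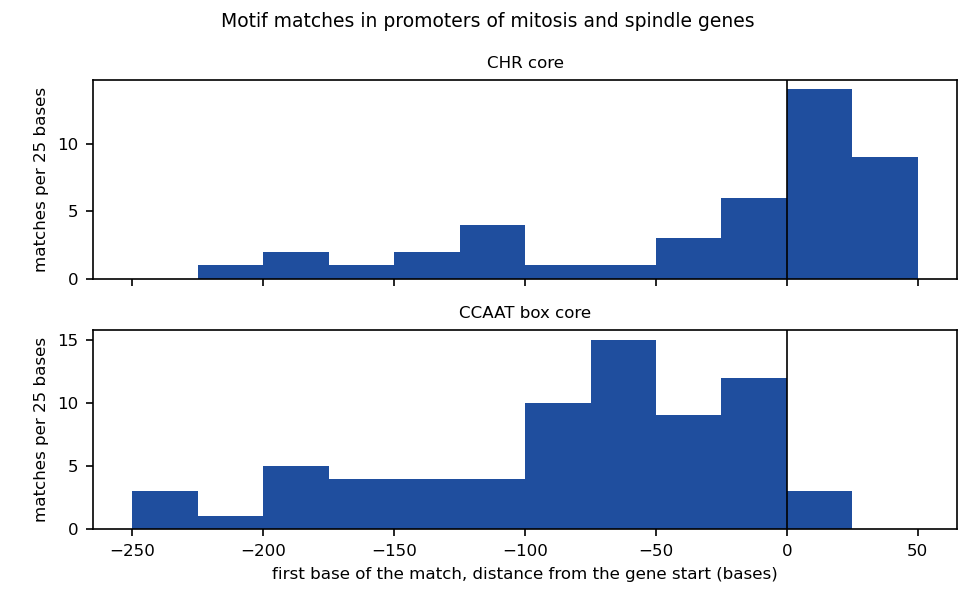
Number of motif matches (vertical axis, matches per 25 bases) against the distance of their first base from the gene start (horizontal axis, bases) in the promoter windows of 42 mitosis and spindle genes, with the homology region (CHR) core, TTTGAA or TTCGAA, above and CCAAT below. The 44 core matches gather around the start, and the 70 CCAAT matches are spread over the region before it.

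The polysomal signal of nearly all of these genes was lower in the Oasl1-/- array. Without any filter on signal, 48 of the 50 were lower, with a median log2 difference of -0.43 (1.34-fold lower) and a range of -0.80 to 0.11. Of all 22088 genes without a filter 42.7% were lower, and their median was 0.03. The low end of the range is Hmmr, which was below the floor described next on both arrays. A gene counted as measured with a log2 signal of 7 or more on at least 1 array. Intron control probe sets, which report background, had the upper end of their central 95% nearby, at 7.13 (wild-type) and 7.34 (Oasl1-/-). This floor was passed by 40 of the 50, of which 38 were lower and 2, Pttg1 and Tpx2, were higher. Among all 7835 genes past the floor 60.6% were lower and 39.1% higher. The median of the 40 was -0.48 (1.40-fold lower), against -0.09 for all genes past the floor. No gene of the 40 differed 2-fold in either direction, where 0.651% of all genes were at least 2-fold lower and 1.57% at least 2-fold higher. At 1.5-fold, a log2 difference of 0.58, 10 of the 40 were lower, against a background of 6.28%, and 0 were higher, against 5.27%. In 4 of these 10, namely Cdca8, Birc5, Anln and Foxm1, the Oasl1-/- signal lay within the intron control range, so the size of the difference is uncertain. Among the 28 members above that range on both arrays, a limit chosen with the values known, 26 were lower and 6 at least 1.5-fold lower, or 92.9% and 21.4%, against 57.8% and 4.08% of 6548 genes.

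The size of the difference depended on the scale, and its direction did not. The typical gene past the floor differed by -0.09 in the RMA signals. The median of the 40 was -0.39 with that gene centred on 0, -0.31 with a loess trend taken out and -0.40 once both arrays were quantile normalized, with 37 of 40 lower in each case. Of all genes past the floor 50.0%, 50.6% and 52.3% were lower, in the same order. The number at least 1.5-fold lower went from 10 to 4, 1 and 2 under these scalings, while the share of all genes so called went from 6.28% to 3.94%, 3.42% and 4.26%.

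The floor also matters, because a dim gene can pass it through the array where it is high. Of the 40 genes, 33 were above it on both arrays, with a median of -0.37, and 7 on the wild-type array only, with a median of -0.56, while 0 passed through the Oasl1-/- array alone. With the floor set on the mean of both arrays instead, a version added after the data were seen, 35 of 37 genes had a lower signal and 10 of them reached 1.5-fold, against backgrounds of 60.1% and 5.60%.

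The lower median was not confined to dim genes, while the members at least 1.5-fold lower were found in the dimmer ranges. For a mean log2 signal of 7 to 8 the median was -0.51 over 16 members, where that of 2230 other genes was -0.13. From 8 to 9 it was -0.36 over 13 members against -0.10 over 2129 other genes, and from 9 to 12 it was -0.42 over 8 against -0.03 over 2955. At least 1.5-fold lower were 7 of 16, 3 of 13 and 0 of 8 members in these ranges. Of the other genes there 8.52%, 5.54% and 3.49% were. The remaining 3 members, with a mean under 7, had a median of -0.56, and 309 other genes there had one of -0.34 (23.0% of them at least 1.5-fold lower), since a gene this dim enters through its higher array. Ranked by difference among the 7177 genes above the floor on both arrays, 15 of 33 members stood in the lowest 10% and 24 in the lowest 25%. Fewer cells in mitosis, less of these mRNAs per cell and a lower share of them on polysomes cannot be told apart in this RNA, since whole cultures were lysed and only the polysomal fractions were measured.

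**Figure D2:**
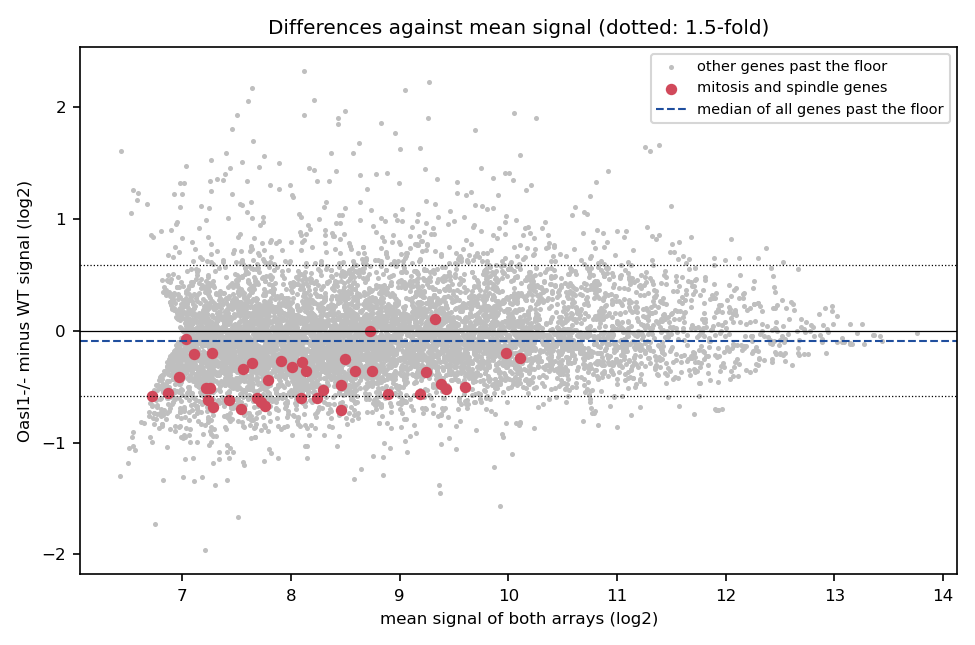
Oasl1-/- minus wild-type log2 signal (vertical axis) against the mean log2 signal of both arrays (horizontal axis) for 7835 genes past the floor, with the 40 mitosis and spindle genes in red, the median of all genes dashed and 1.5-fold dotted. Of the red points 37 lie below the median difference of all genes, and Pttg1, Tpx2 and Smc4 lie above it.

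The cultures were checked for identity. Oasl1, the deleted gene, had a log2 signal of 10.70 in wild-type and 9.14 in Oasl1-/- cells, which left 33.7% of the linear signal, and the labels do not say which part of the gene was removed. All 8 macrophage markers, such as Csf1r (12.42 and 12.50) and Emr1 (12.03 and 12.17), passed the floor and were level or higher in the Oasl1-/- array, and their summed linear signal was 31418 and 34947. None of the 7 T and NK cell, 5 B cell, 10 neutrophil and progenitor, 5 dendritic cell or 5 fibroblast markers passed the floor. Of 7 erythroid and megakaryocyte markers 1 did, Pf4, at 9.48 and 9.17. The summed linear signal of those 7 was 913 and 790, and its part in the results below was not tested.

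All 5 spindle checkpoint genes had lower signals in the Oasl1-/- array, where 42.7% of all genes without a filter were lower. Bub1b, whose product BubR1 is part of the complex that inhibits Cdc20, had the lowest difference of all 40, with a wild-type log2 signal of 8.81 and an Oasl1-/- signal of 8.11 (-0.71, 1.63-fold lower). Its probe set of 45 probes lies at chr2:118423992-118467327 on the plus strand (NCBIM37, the build of all probe set positions here). Bub1, the kinase that marks kinetochores for checkpoint proteins, had signals of 7.99 and 7.38 (-0.61, 1.52-fold lower) and lies at chr2:127626857-127657596. Mad2l1, which encodes the Cdc20 inhibitor Mad2, differed less, from 9.43 to 9.06 (-0.37). Bub3, the shared partner of Bub1 and BubR1, had 10.07 and 9.88 (-0.20), which placed it among the members with the smallest differences. Ttk, the kinase at the top of the checkpoint, was below the floor on both arrays at 6.48 and 5.70, so its difference of -0.78 is not bounded by a measured level.

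The mitotic kinases differed by moderate amounts and none reached 1.5-fold. Nek2, a centrosome kinase, had 8.56 and 8.03 (-0.53). Plk1, the Polo-like kinase that acts from mitotic entry to cytokinesis, had 8.93 and 8.56 (-0.36), and Aurka, which matures centrosomes and the spindle poles, had 8.32 and 7.96 (-0.36). Melk, a kinase whose mRNA is high in dividing cells, had 7.37 and 7.18 (-0.20).

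In the chromosomal passenger complex, which corrects faulty attachments and guides cytokinesis, the subunits differed by unequal amounts, of which those of the dimmer genes are uncertain in size. Cdca8, which encodes borealin, had 7.89 and 7.19 (-0.70), the second value lying within the intron control range, and lies at chr4:124595708-124614147 on the minus strand. Birc5, which encodes survivin, had 7.63 and 6.94 (-0.68), the second value being under the floor, and lies at chr11:117710551-117717057 on the plus strand. Smaller differences were measured for the kinase subunit Aurkb, with 8.77 and 8.41 (-0.36), and for the scaffold Incenp, with 8.63 and 8.37 (-0.25).

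The cyclins and the kinase they activate were lower by up to 1.51-fold. Cdk1 itself had 8.39 and 7.79 (-0.60, 1.51-fold lower), at chr10:68799383-68815664 on the minus strand. Ccna2, the cyclin of S phase and early mitosis, had 9.47 and 8.90 (-0.57, 1.48-fold lower). Ccnb2, a B-type cyclin, had 9.85 and 9.36 (-0.50). Ccnb1, the main mitotic cyclin, had 10.23 and 9.99 (-0.24) in the probe set taken by the rule, which lies on chromosome 7. Further probe sets named Ccnb1 lie on chromosomes 13 and 4 and differed by -0.27 and -0.29, and signal of near-identical copies cannot be told apart. The chromosome 13 set, with 10.07 and 9.80, covers the longest stretch, chr13:101548687-101556441, against chr7:49361266-49362555 for the set taken. The phosphatase gene Cdc25b, which activates Cdk1, had 8.24 and 7.96 (-0.28). A second set with this symbol lies on the opposite strand and was below the floor. Cdc25c, a related phosphatase gene, was below the floor at 6.65 and 6.12 (-0.53).

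Genes tied to ubiquitination and anaphase onset differed in both directions. Cdca3, known as a trigger of mitotic entry, had 8.10 and 7.42 (-0.68, 1.60-fold lower) and lies at chr6:124768585-124783716 on the plus strand. Cdc20, which activates the anaphase-promoting complex, had 7.51 and 7.00 (-0.51), the second value lying just under the floor. Ube2c, the ubiquitin-conjugating enzyme of that complex, was below the floor at 6.74 and 6.57 (-0.17). Pttg1, which encodes securin, the inhibitor of separase, had 9.28 and 9.38 (0.11, 1.08-fold higher). It was the highest difference of the 40 and stood at or above 71.8% of all genes past the floor. Its window above holds neither motif.

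All 7 kinesin motor genes had lower signals in the Oasl1-/- array, against 42.7% of all genes without a filter. Kif22, a chromosome-bound kinesin gene, had 7.01 and 6.43 (-0.58), just short of 1.5-fold and dependent on 1 array above the floor. Its signals lay within the intron control range on both arrays, so the size of the difference is uncertain. Kif23, a centralspindlin motor of cytokinesis, had 8.70 and 8.22 (-0.48). Kif11, which pushes spindle poles apart, had 7.18 and 6.76 (-0.42), the second value being under the floor. Kif20a, which carries the passenger complex to the midzone, had 8.17 and 7.84 (-0.33), and Kif2c, a microtubule depolymerase, had 7.79 and 7.50 (-0.29). The other kinesins, Kif4 at 6.46 and 6.06 (-0.40) and Kif20b at 5.65 and 5.43 (-0.22), were below the floor on both arrays.

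Of 6 centromere and kinetochore genes 3 passed the floor. Cenpa, the histone variant that marks centromeres, had 8.54 and 7.94 (-0.60, 1.51-fold lower), at chr5:30969275-30977199 on the plus strand. Within the Ndc80 complex, which grips microtubules, Spc25 had 7.47 and 6.96 (-0.51), the second value being under the floor. Nuf2 had 8.01 and 7.57 (-0.44), while Ndc80 was below the floor at 6.46 and 6.28 (-0.18). The large kinetochore proteins of Cenpf, at 6.53 and 6.23 (-0.30), and Cenpe, at 6.22 and 6.19 (-0.02), also had signals below the floor.

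Spindle assembly and cytokinesis genes ranged from lower to level. Anln, which encodes the contractile ring scaffold anillin, had 7.74 and 7.12 (-0.62) in its probe set at chr9:22136456-22193667 on the minus strand, and the second value lay within the intron control range, so the size is uncertain. A neighbouring plus-strand set with the same symbol was far below the floor at 4.26 and 4.51. Racgap1, the GTPase-activating subunit of centralspindlin, had 9.68 and 9.16 (-0.52). Prc1, which bundles midzone microtubules, had 7.73 and 7.39 (-0.34), and Ect2, the exchange factor that starts furrowing, had 8.04 and 7.77 (-0.27). Tpx2, which activates Aurka on the spindle, was level at 8.73 and 8.73, a difference of 0.00. Hmmr and Nusap1, both microtubule-binding, were below the floor, Hmmr at 5.72 and 4.92 (-0.80) and Nusap1 at 6.43 and 6.17 (-0.25).

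All 6 chromosome structure genes were lower, where 60.6% of all genes past the floor were, and the condensin ATPases differed least. Ncaph, the kleisin subunit of condensin, had 8.05 and 7.41 (-0.64, 1.56-fold lower), at chr2:126929562-126959679 on the minus strand. Ncapg, another regulatory subunit, had 7.14 and 6.59 (-0.56), the second value being under the floor. The ATPase subunit genes Smc2, with 7.21 and 7.00 (-0.21), and Smc4, with 7.08 and 7.00 (-0.08), stood near the floor. Smc4 lay within the intron control range on both arrays, and Smc2 did on the Oasl1-/- array. After centring, loess or quantile normalization Smc4 was slightly higher in the Oasl1-/- array. Top2a, which untangles DNA, had 9.17 and 8.61 (-0.57, 1.48-fold lower), and its further sets were far below the floor. Mki67, the proliferation marker that coats mitotic chromosomes, had 9.62 and 9.14 (-0.48, 1.40-fold lower). Foxm1, the transcription factor that works with the MuvB complex on late cell cycle promoters, had 7.54 and 6.93 (-0.62), at chr6:128312994-128335006, and the second value was under the floor.

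By role, medians of the genes past the floor were -0.52 for the passenger complex, -0.52 for condensin and chromosome structure, -0.51 for anaphase onset and for kinetochores, -0.50 for cyclins and Cdk1, -0.49 for the checkpoint, -0.42 for kinesins, -0.36 for mitotic kinases and -0.34 for spindle assembly and cytokinesis. Each rests on 3 to 6 genes, and their order depends on the setting. The median of anaphase onset was -0.29 with a floor of 7 on both arrays, a floor of 8 or the intron limit, and that of the passenger complex was -0.31 with either of the last settings. After the loess trend was removed, medians were -0.34 for anaphase onset, -0.33 for the kinetochore, -0.20 for kinesins and -0.20 for spindle assembly and cytokinesis. All of them stayed negative under each alternative tried.

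**Figure D3:**
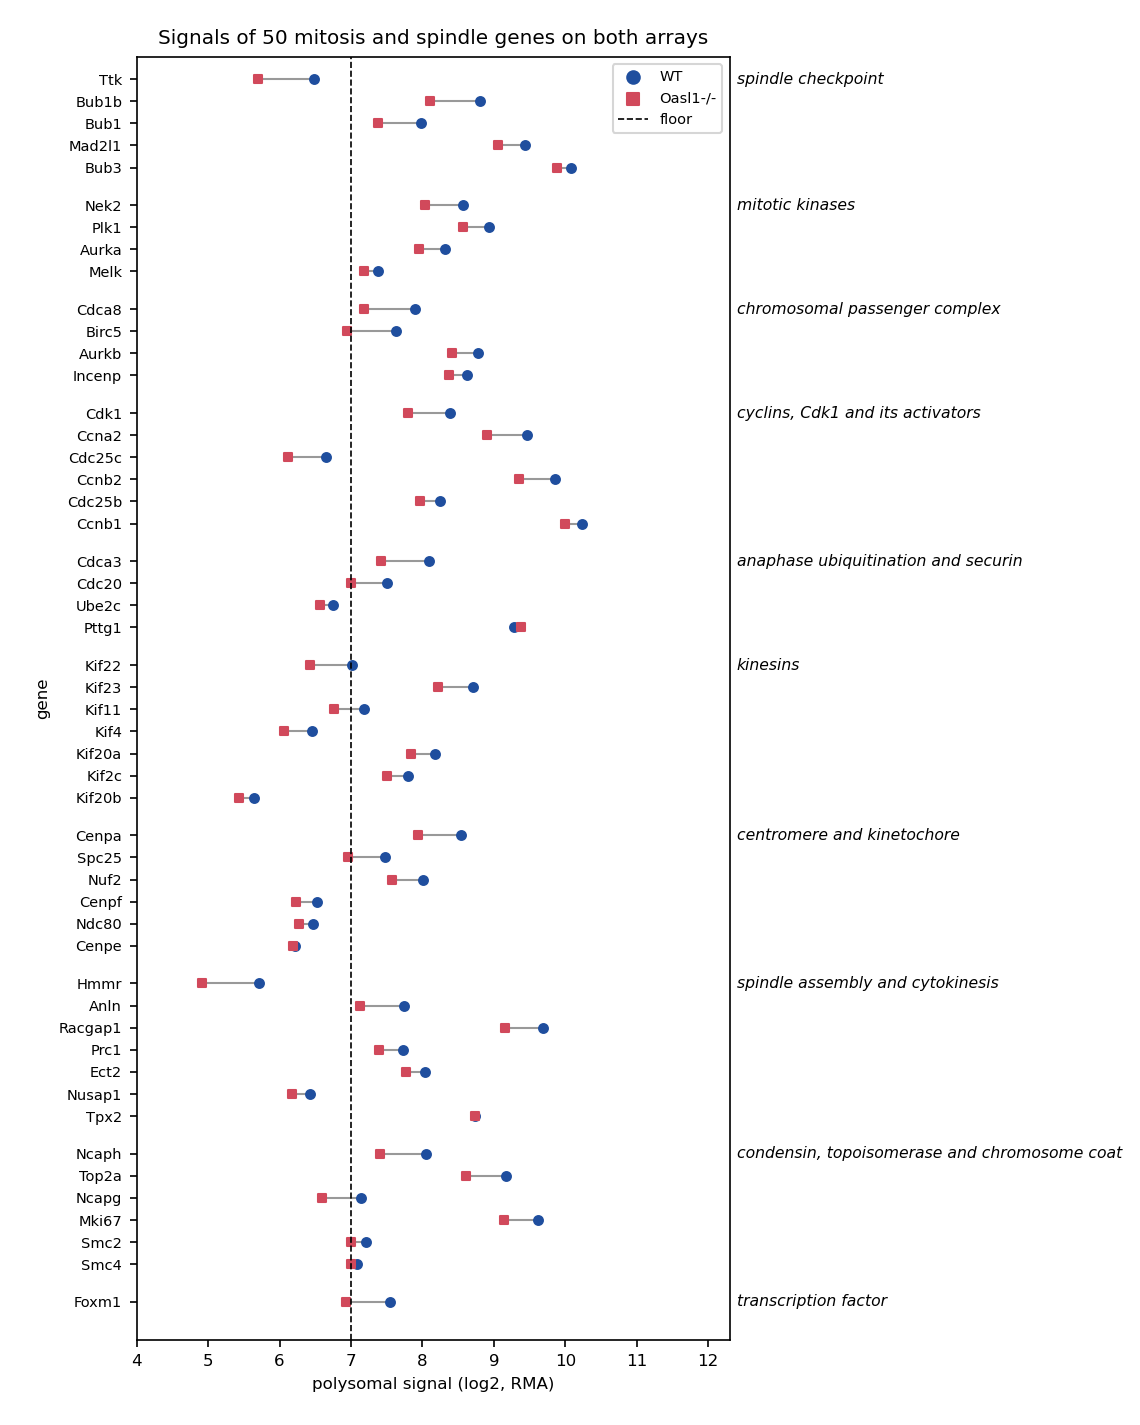
Log2 polysomal signal (horizontal axis) of the 50 mitosis and spindle genes (vertical axis, grouped by role) in the wild-type (circles) and Oasl1-/- (squares) array, with the floor of 7 dashed. The square lies left of the circle for 48 genes. It lies right of it for Pttg1 and on it for Tpx2.

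Members with and without the homology region core both had lower signals. The 25 genes past the floor whose window holds it had a median of -0.51 and a range of -0.71 to -0.20. Those without it, 8 genes, had a median of -0.40, and Birc5 and Ncaph were among them at -0.68 and -0.64. Outside the list, 351 genes past the floor have both the core and CCAAT in their window, and their median was -0.08, close to the -0.09 of all 5527 other genes with a window.

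Most other genes of chromosome segregation had lower signals too, with medians between that of the members and that of all genes. These lists, like the members, were chosen with earlier results known, and their counts stand against backgrounds of 60.6% lower by any amount and 6.28% at least 1.5-fold lower. Of the list genes named here and below, Ncapd3, Mzt1, Pbk, Cenpn, Pds5b, Cdca5, Arpp19, E2f6, Tyms and Pole passed the floor on the wild-type array only. The size of their differences is therefore uncertain. It is also uncertain for Cks1b, Haus4, Spc24, Skp2 and Ccnd3, whose Oasl1-/- signals lay within the intron control range, which reached 7.34. The remaining condensin genes had a median of -0.45 over 4, with Ncapd3 at -0.69 and Ncapd2 at -0.60, both at least 1.5-fold lower, Ncapg2 at -0.30 and Ncaph2 at -0.21. Gamma-tubulin ring and augmin genes, which nucleate spindle microtubules, had a median of -0.36, and all 13 of 17 past the floor were lower, 2 of them at least 1.5-fold, namely Mzt1, listed as 2410129H14Rik, at -0.68 and Haus4 at -0.66. The further spindle, kinesin and cytokinesis genes had a median of -0.24 over 16 of 33, with 13 lower. Cks1b, a Cdk-binding subunit, at -1.05 was at least 2-fold lower, and Pbk, a mitotic kinase, was at -0.66. Further kinetochore and checkpoint genes had a median of -0.21 over 15 of 33, with 14 lower and 0 at 1.5-fold, led by Cenpn at -0.55 and Spc24, the partner of Spc25, at -0.54.

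Lists of mitotic regulators had medians from -0.22 to -0.07. Anaphase-promoting complex genes had a median of -0.22 over 13 of 15, with 10 lower. Anapc5 at -0.85 was the only one of them at 1.5-fold, and Anapc11, the RING subunit, was at -0.39. Cohesin and its regulators had a median of -0.07 over 12 of 17, with 6 lower and 5 higher, Pds5b at -0.43, Cdca5, which encodes sororin, at -0.40, and 0 at 1.5-fold. That median turned slightly positive after centring (0.02) and after loess (0.01). Mitotic entry and exit regulators had a median of -0.18 over 16 of 19, with 13 lower, Arpp19, an inhibitor of PP2A, at -0.73 and Ccnh, of the Cdk-activating kinase, at -0.54.

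Earlier cell cycle genes varied more widely. The list of MuvB, E2F and Rb-family regulators had a median of -0.28 over 12 of 20, with 9 lower, E2f6, a repressor of the family, at -1.02 and Rbl2 at -0.51. G1 cyclins and their kinases had a median of -0.30 over 10 of 11. In addition to Cks1b these were Cdk2 at -0.58, Cdk4 at -0.51, Cdc25a at -0.46, Ccne1 at -0.37, Skp2 at -0.22, Ccnd3 at -0.17, Cdk6 at -0.16, Ccnd1 at -0.01 and Ccnd2 at 0.74. Ccnd2, a D-type cyclin with signals of 10.42 and 11.16, was 1.67-fold higher in the Oasl1-/- array and was the only one of the list that was higher. CDK inhibitors and antiproliferative genes had a median of -0.15 over 16 of 22, with 10 lower, or 62.5%, and 6 higher. At least 1.5-fold lower were 3, or 18.8%, namely Sesn1, Cdkn2c (-0.78) and Cdkn3 (-0.69), and 1 was at least 1.5-fold higher. The Oasl1-/- signals of Cdkn2c and Cdkn3 lay within the intron control range, so the size of these differences is uncertain. Sesn1, a p53 target, differed by -1.24 and Gadd45g, a stress-induced growth regulator, by 1.04, both past 2-fold in opposite directions. DNA replication genes had a median of -0.37 over 31 of 38, with 30 lower and 8 (25.8%) at least 1.5-fold lower. In the lead were Tyms at -1.17 (8.15 and 6.98) and Pole at -0.94 (7.76 and 6.82). Like these, Prim1 (7.70 and 6.81) and Pola1 (7.18 and 6.42), also among the 8, passed the floor on the wild-type array only.

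**Figure D4:**
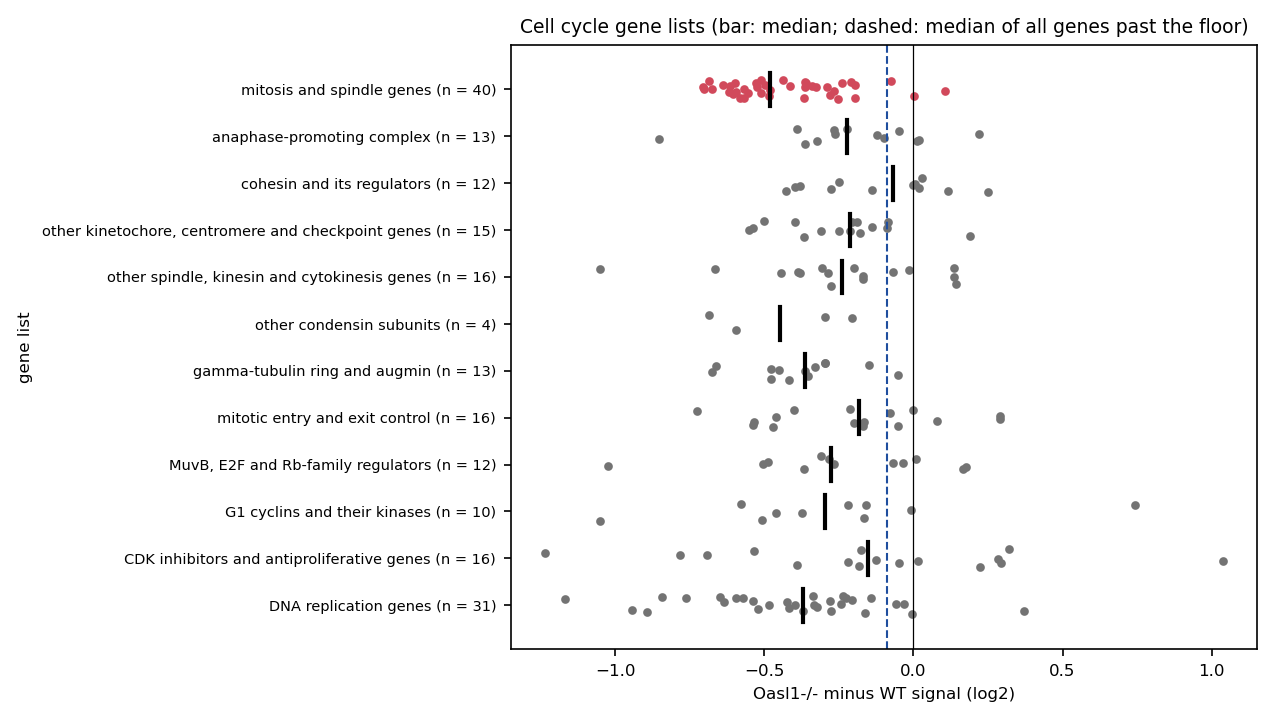
Oasl1-/- minus wild-type log2 signal (horizontal axis) of the genes past the floor in each cell cycle list (vertical axis), with 1 point per gene, list medians as bars and the median of all genes dashed. The 40 mitosis and spindle genes have a median of -0.48, and the cohesin list, at -0.07, lies close to the median of all genes, -0.09.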

How the data were processed

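Polysome-associated RNA of 1 wild-type and 1 Oasl1-/- BMDM culture was hybridised to Affymetrix Mouse Gene 1.0 ST arrays. Per the submitters' processing notes, scans were processed with GCOS and signals with RMA. Expression Console 1.1 is named in the series design text, as is version 2.9.2 of the R affy package. Per array, the table of the authors gives log2 signals of 35556 probe sets, along with a log2 ratio and an unsigned fold on the linear scale, as deposited. The deposited ratio equalled Oasl1-/- minus wild-type in all 35556 rows and the fold was 2 to the power of its size, both within 0.0001, and the signals of the series' value table were identical. Symbols and NCBIM37 positions are those of the deposited annotation, in which 25465 probe sets have 1 symbol, 2 have several and 10089 have none.

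Each gene was represented by its probe set with the highest mean signal, and a floor of 7 on the higher log2 signal left 7835 of 22088 genes. The differences, medians, counts and motif matches were computed with Python 3.11.15, pandas 2.3.3 and statsmodels 0.14.6 (lowess fraction 0.4), after the selection and the counts were tested on simulated data. Groups follow the labelled genotypes. A single array of each gives no replicate error, p-value or interval, and the number of arrays limits the precision. Members, lists and thresholds were chosen with earlier results of these data known. All members are named, with the 2 genes of largest absolute difference past the floor of each other list and all genes of the 2 lists with the fewest past it. Genes or values beyond this rule were chosen after their values were seen. Symbols of 10 list genes were matched through RefSeq synonyms (GRCm38.p6), and Rbbp4 was not found. Alternatives were other scalings, a pseudocount of 32 on the linear scale, other floors and the mean over probe sets.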

Additional observations from a re-analysis of the deposited data

How the results depend on the processing

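With 1 array per genotype no result has a replicate check, and signal near background limits all genes close to the floor. The count of 10 members at least 1.5-fold lower became 4 with the median gene centred on 0, 1 after loess, 2 after quantile normalization, 3 with a pseudocount of 32 (4.12% of all genes), 5 of the 25 members past a floor of 8 (5.17%) and 6 of the 28 above the intron range on both arrays (4.08%). Of the 25 members 23 were lower by any amount (58.2% of all genes), since fewer genes were counted. The median of -0.48 was -0.31 after loess and -0.37 over the 33 members above the floor on both arrays. Relative to the median gene it lay between -0.29 and -0.46 under all alternatives. Of the 40 members past the floor, Smc4 alone reversed, to 0.0135 after centring, 0.14 after loess and 0.0272 after quantile normalization. The cohesin list reversed to 0.0194 after centring, 0.0141 after loess, 0.0018 with a floor of 8 or of 7 on the mean and 0.0035 with a floor of 7 or the intron limit on both arrays, and the list of CDK inhibitors to 0.0163 with a floor of 8 or that limit. Where no construction shows it, the cause was not tested. No paired analysis was possible because each genotype has 1 array.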

Other observations

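The annotation deposited with the table ties further genes to division, which gives a view that does not rest on hand-written lists. Of the 40 mitosis and spindle genes past the floor, 30 carry a cell division process term, 28 a mitosis term and 15 a kinetochore or centromere component term. Among genes that are not members, 160 past the floor carry a cell division term, of which 123, or 76.9%, were lower, with a median of -0.19, and 11, or 6.88%, were at least 1.5-fold lower, close to the 6.28% of all genes. The 30 other genes with a spindle component term had a median of -0.28, with 26 lower and 1 at least 1.5-fold lower. For the 56 others with a kinetochore or centromere term the median was -0.17, with 42 lower and 5, or 8.93%, at least 1.5-fold lower. The broader cell cycle term was carried by 355 others, with a median of -0.17. Of these 73.8% were lower and 32, or 9.01%, at least 1.5-fold lower. Genes of nuclear proteins in general were lower as well, with a median of -0.15 over 2281 and 70.2% lower, against -0.09 and 60.6% for all genes past the floor.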
